A study of Danio rerio with 4 samples.

Results

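The genes described here encode the non-collagen matrix of the regenerating zebrafish (*Danio rerio*) fin tip and the enzymes that modify and crosslink collagen. They were chosen by name, with earlier results of these data known, as a list of 60 zebrafish genes. The list covers fibronectins, tenascins, periostins, hyaluronan and its partners, proteoglycans, elastic fibre proteins, small leucine-rich proteoglycans, lysyl oxidases, collagen-modifying enzymes and midkines. Of the 60 names, 58 were found among the 31901 counted genes and stand for 64 gene IDs, because the table of gene names gives some zebrafish pairs a single human symbol and both copies were then kept. The names *fbn1* and *elna* were not found, and *tnw*, the zebrafish gene of tenascin W, was matched as *tnn* through a RefSeq synonym. The names *fbn2a* and *fbn2b* both fell on a single ID, FBN2, and which copy it stands for could not be told. Of the 64 genes, 60 had enough reads to be tested and 4 did not. Where 2 genes share a symbol, the Ensembl ID is given, and reads that could belong to either copy make such pairs uncertain.

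Tissue came from adult fish, 96 hours after the caudal fin was amputated. The fish were *longfin* heterozygotes, with 1 copy of the dominant *longfin* allele that the study's title ties to misplaced *kcnh2a*, a potassium channel gene, and to fins that outgrow their usual length, or wildtype clutchmates with no copy. Fish of both genotypes carried the sp7:eGFP transgene, in which the promoter of the osteoblast gene *sp7* drives a green fluorescent protein, and the tissue collected was the tip without fluorescence, distal to the labelled cells. Each library pooled the tips of 4 fins, and there were 2 libraries of each genotype. The labels do not say if pools of 1 genotype were collected on different days or from different clutches, and the p-values then cover the pool-to-pool spread alone, which may be technical.

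Reads in genes numbered 19428186 to 23157979 per library. The actinodin gene *and1*, listed here among fin mesenchyme markers, had 11487 and 10260.0 CPM in the longfin heterozygous libraries and 8859 and 8332 CPM in the wildtype libraries. CPM is the depth-normalised read count, with library sizes scaled by TMM. Transcripts of SP7 itself were present, with 45.9 and 57.4 CPM in longfin heterozygotes and 45.4 and 56.1 CPM in wildtype fish. Other osteoblast markers were read too, among them IFITM5 and PHEX at means of 62.1 and 57.7 CPM over the genotypes. Of that list only *bglap*, a late osteoblast gene, had 0 reads in every library. The marker lists were chosen with earlier results of these data known. Of 13 tested markers of the superficial epidermis, 2 passed edgeR's test as lower (KLF4 and *pkp3a*) and 0 as higher. Over all tested genes, 0.294% passed as lower and 0.109% as higher, and none had an adjusted p below that of KLF4 (0.0037). The superficial epidermis list summed to 8444 and 9243 CPM in longfin heterozygotes, against 11242 and 11568 CPM in wildtype fish. Most of that sum came from the keratin genes *krt91* and *krt4*. None of 16 tested fin mesenchyme markers passed. Their list summed to 17712 and 15774 CPM in longfin heterozygotes and 14409 and 13166 CPM in wildtype fish, most of it from *and1*. Of the 16 markers, 11 had a log2 fold change above 0 and 5 below, among these a PRRX1 copy (ENSDARG00000033971) at -0.44. The basal epidermis list, with 0 of 13 passing, summed to 18528 and 18702 CPM in longfin heterozygotes and 18565 and 19807 CPM in wildtype fish. The lists for osteoblasts, endothelium and leukocytes stayed between 72.3 and 352 CPM in each library. Of the leukocyte list only the neutrophil lysozyme gene *lyz* had 0 reads throughout, and LCP1 was the most read, at a mean of 49.4 CPM. In bulk tissue, fewer cells of a type and less RNA per cell cannot be told apart, and the part that these markers play in the matrix genes' differences was not tested.

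After amputation, a fin ray regrows from a blastema of mesenchymal cells under a wound epidermis. The blastema lays down a provisional matrix rich in fibronectin, tenascin C and hyaluronan, through which cells migrate, and collagen fibrils are later laid down, hydroxylated, helped to fold by chaperones and crosslinked by lysyl oxidases. In the zebrafish heart and fin and in salamander limbs, a matrix of this kind is a known feature of early regeneration.

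Before TMM scaling the genotypes overlapped in the share of reads. The 64 genes took 2.93 and 2.89% of all reads in genes in longfin heterozygotes and 2.67 and 2.91% in wildtype fish. Summed, they reached 28759 and 28872 CPM in the longfin heterozygous libraries and 28274 and 28173 CPM in the wildtype libraries, so both longfin heterozygous totals were slightly the higher; the totals were not tested. Most of these reads came from 4 genes, POSTN (ENSDARG00000104267), FN1 (ENSDARG00000006526), SPARC and TNC (ENSDARG00000021948), which held 65.0 to 67.1% of them. Reads were not divided by transcript length here, so the order of read counts is not an order of transcript numbers. Among tested genes the lowest mean CPM was 1.01, in a biglycan copy.

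**Figure D1:**
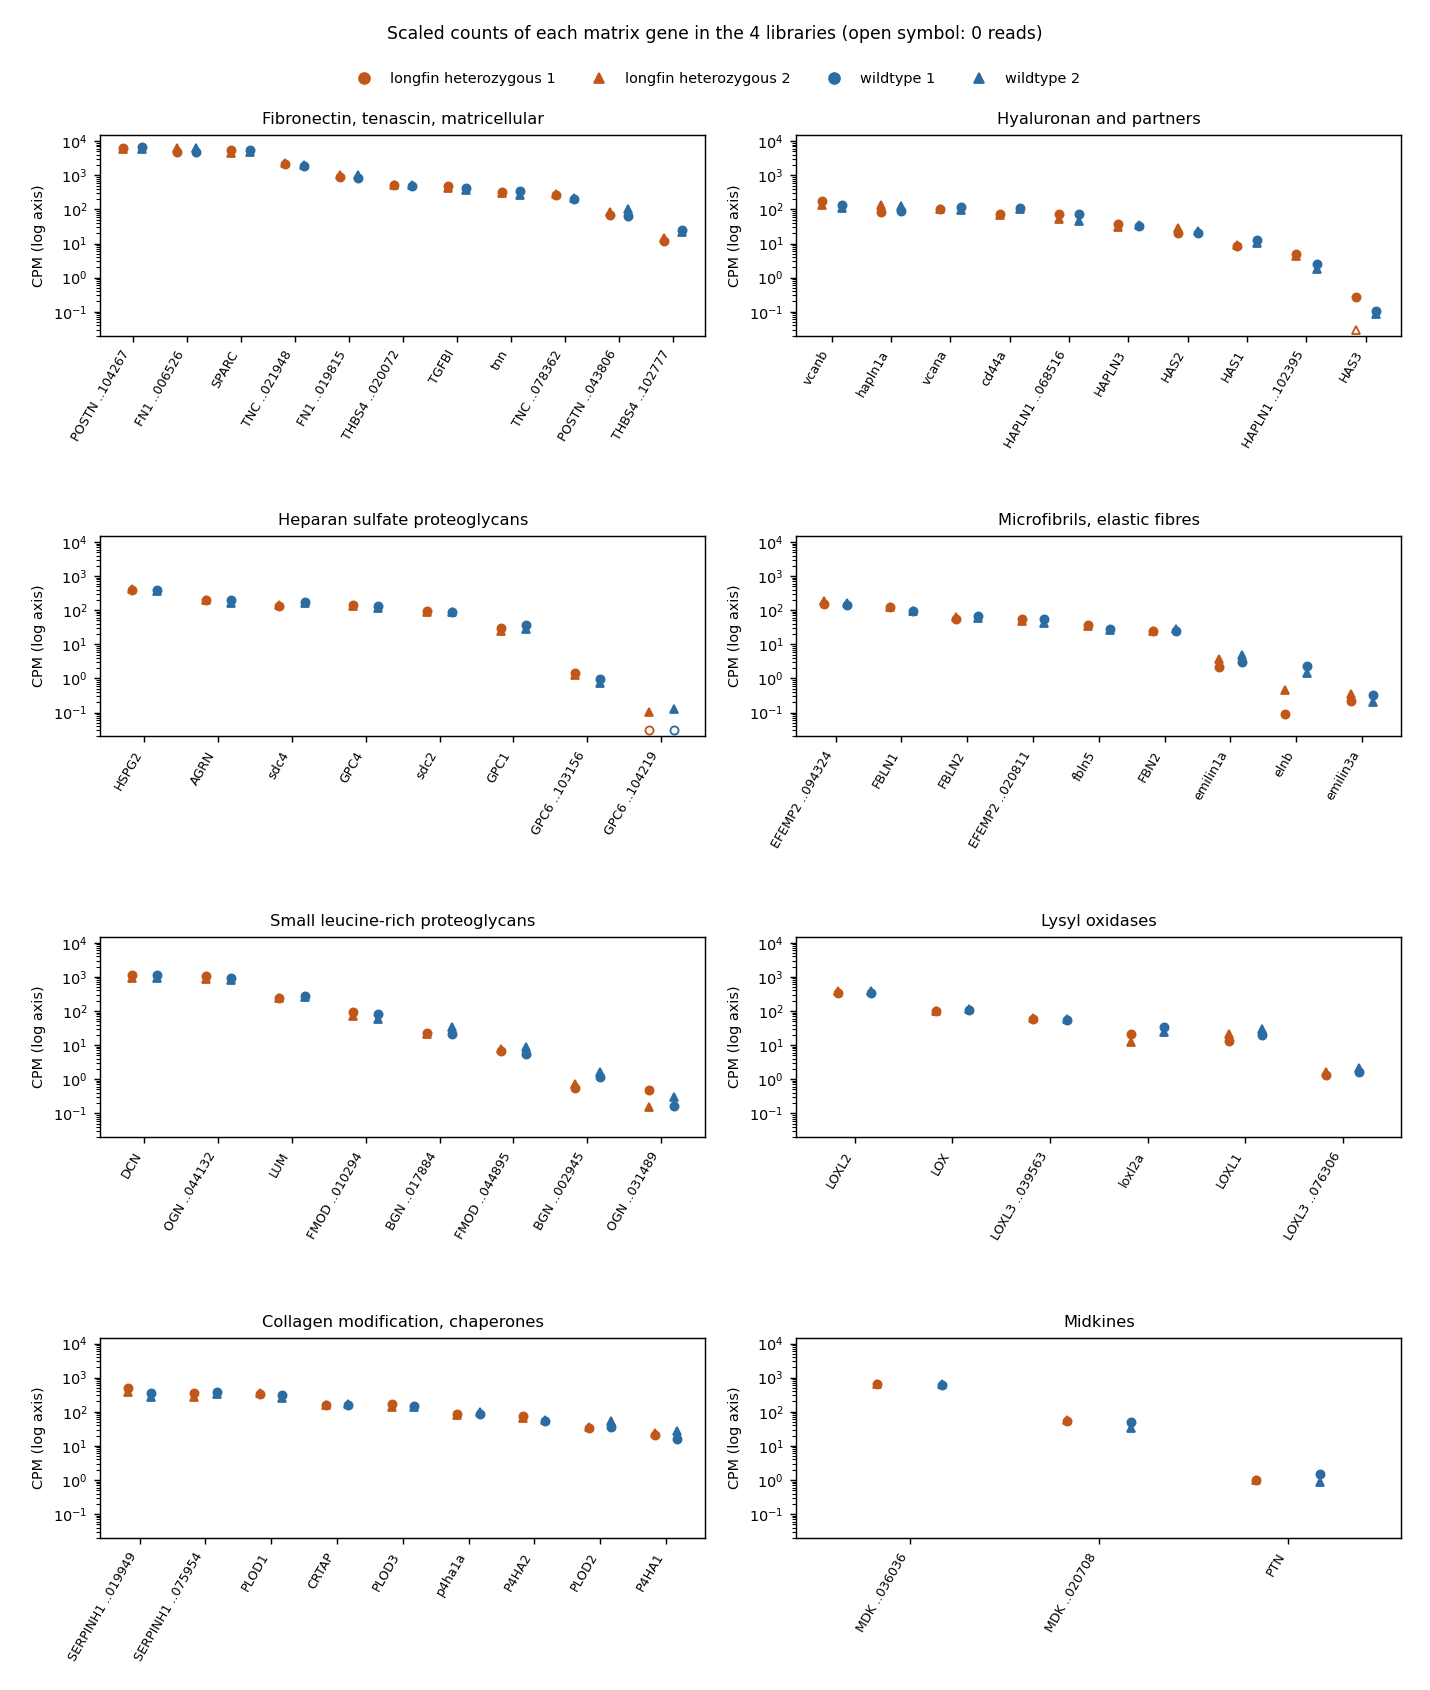
Each panel shows a class of matrix genes, with CPM on a log axis for the 2 longfin heterozygous libraries (orange) left of the 2 wildtype libraries (blue); circles are replicate 1, triangles replicate 2, open symbols 0 reads, and the last digits of the Ensembl ID tell copies apart. POSTN (ENSDARG00000104267), FN1 (ENSDARG00000006526) and SPARC lie highest in every library, and for many genes the symbols of the genotypes fall close together.

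Between longfin heterozygous and wildtype tips, edgeR's quasi-likelihood test, fitted without a replicate term, called 0 of the 60 matrix genes at an adjusted p under 0.05, and 74 of all 18366 genes tested (0.403%; 0.109% higher and 0.294% lower). Limma voom also called 0 of the 60, against 0.327% of all genes, and DESeq2 called 2, *cd44a* and THBS4 (ENSDARG00000102777), against 1.58% of all genes. With the replicate number as a block, edgeR called 12 of the 60, against 4.32% of all genes, but no label says what a number shares. Without that block, the lowest adjusted p in edgeR was 0.056, for *cd44a*. At an unadjusted p under 0.05 there were 16 of 60 genes (26.7%), 9 with higher and 7 with lower values in longfin heterozygotes, where 9.47% of all tested genes reached it, 3.65% as higher and 5.82% as lower. Without longfin heterozygous replicate 1 that count was 9 of 60 (15%), where 6.67% of all genes tested in that fit reached it. The matrix genes were measured with a median SE of 0.12 on the log2 scale, against 0.17 over all tested genes, and what this contributes to the count was not tested. Because the list was chosen with earlier results of these data known, the share of 26.7% is not independent of them. Their fold changes were centred on 0, with a median log2 fold change of 0.01 (32 above and 28 below 0), against -0.00 over all genes, and a median size of 0.15 against 0.15. In 24 of the 60 genes (40%) the libraries of one genotype all lay to one side of the other's, 13 higher and 11 lower in longfin heterozygotes. Over all tested genes this share was 39.8%, 20.0% as higher and 19.8% as lower.

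**Figure D2:**
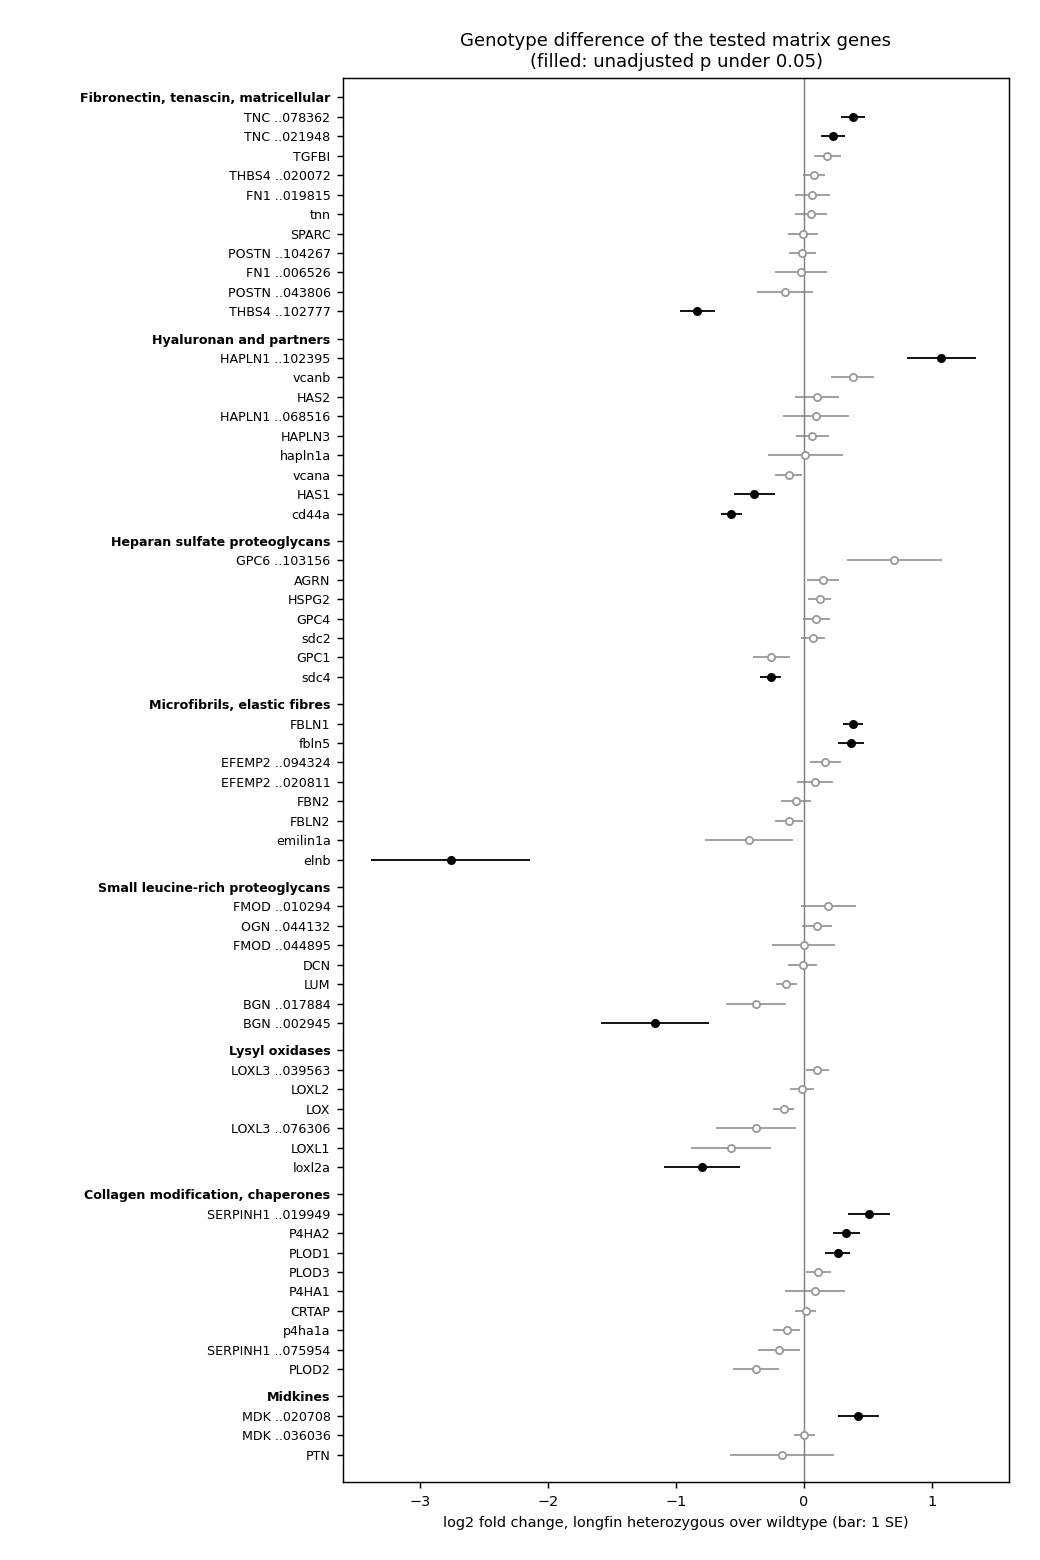
Log2 fold changes of the 60 tested genes, longfin heterozygous over wildtype, by class, with bars of 1 SE; filled points have an unadjusted p under 0.05. The 16 filled points fall on both sides of 0, between -2.76 for *elnb* and 1.07 for a HAPLN1 copy, and the abundant POSTN, SPARC and FN1 genes sit at 0.

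Among adhesive glycoproteins of the provisional matrix, the most read had log2 fold changes near 0. POSTN (ENSDARG00000104267), a periostin gene whose secreted product binds collagen and integrins, had 6420.0 and 5834 CPM in longfin heterozygotes and 6635 and 5721 CPM in wildtype fish. Its log2 fold change was -0.01 ± 0.11 (SE). FN1 (ENSDARG00000006526), a gene of fibronectin, the main adhesive protein of provisional matrix, stood at 4717 and 6393 CPM in longfin heterozygotes and 4784 and 6521 CPM in wildtype tips. Replicate 2 was the higher library in both genotypes, and the genotypes overlapped, with a log2 fold change of -0.03 ± 0.20 (SE). The collagen-binding matricellular gene SPARC was at 5430.1 and 4642 CPM in longfin heterozygotes and 5443 and 4678 CPM in wildtype tips, here with replicate 1 the higher in both.

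Both tenascin C genes had higher values in longfin heterozygotes without passing the test. TNC (ENSDARG00000021948), whose product loosens cell adhesion at wounds, had 2116 and 2354 CPM in longfin heterozygotes and 1844 and 1971 CPM in wildtype fish. The second TNC gene (ENSDARG00000078362) had 263 and 285 CPM in longfin heterozygotes and 197 and 223 CPM in wildtype fish. Every longfin heterozygous library was above every wildtype library in both. The log2 fold changes were 0.23 ± 0.09 (SE) and 0.38 ± 0.10 (SE), with adjusted p-values in edgeR's test of 0.507 and 0.236. The related tenascin gene *tnn* overlapped between genotypes, at 321 and 312 CPM in longfin heterozygotes and 342 and 266 CPM in wildtype tips.

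THBS4 (ENSDARG00000102777), one of the 2 genes of thrombospondin 4, a matrix protein of tendon and muscle attachments, had the largest fold change of this class. It had 12.2 and 14.1 CPM in longfin heterozygotes and 24.8 and 22 CPM in wildtype fish, means of 13.1 ± 1.37 and 23.4 ± 1.92 CPM (SD, n = 2 each). The longfin heterozygous libraries were both lower, with a log2 fold change of -0.83 ± 0.14 (SE) and an adjusted p of 0.0744 in edgeR. Over the alternative settings with all 4 libraries its adjusted p ran from 0.0013, in edgeR with the replicate number as a block, to 0.0939 in limma voom. DESeq2 gave 0.00447. Without a library the log2 fold change lay between -0.942 and -0.73. The other copy (ENSDARG00000020072), which had far more reads, was at 523 and 536 CPM in longfin heterozygotes and 479.6 and 524 CPM in wildtype fish, a log2 fold change of 0.08 ± 0.08 (SE). The remaining genes of the class, the second FN1 (ENSDARG00000019815), the second POSTN (ENSDARG00000043806) and the periostin relative TGFBI, had log2 fold changes of 0.07, -0.15 and 0.18.

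Hyaluronan is a long unbranched sugar polymer that is made at the cell surface by hyaluronan synthases, bundled by versicans and link proteins, and bound by the receptor CD44. The receptor gene *cd44a* came closest to the threshold of all 60 genes. It had 72.5 and 70.4 CPM in longfin heterozygotes and 107 and 105 CPM in wildtype fish, means of 71.5 ± 1.47 and 106 ± 1.38 CPM (SD, n = 2 each). The libraries of each genotype lay close together and the longfin heterozygous ones were both lower, with a log2 fold change of -0.57 ± 0.08 (SE) and an adjusted p of 0.056 in edgeR. Over the alternative settings with all 4 libraries that p ran from 0.000348, in edgeR with the replicate number as a block, to 0.072 in limma voom. DESeq2 gave 0.00153. Without a library the log2 fold change lay between -0.589 and -0.546. The gene *cd44b* was not in this class but among the 16 genes of hyaluronan turnover, and its own values are not given here. Of those 16 genes, 4 were not tested, and 0 of the 12 tested reached an unadjusted p under 0.05 in edgeR. Of the 13 superficial epidermis markers tested, 10 had a log2 fold change below 0 and 3 above. At an unadjusted p under 0.05 in edgeR, 8 were lower and 0 higher, where 5.82% of all tested genes were lower and 3.65% higher. Of 13 basal epidermis markers, 3 were lower and 1 higher at that level. Of 16 fin mesenchyme markers, 1 was lower and 7 were higher. These lists were chosen with earlier results of these data known, and their part in the *cd44a* difference was not tested.

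None of the other hyaluronan genes passed the test. HAS1, a hyaluronan synthase gene, had 8.28 and 9.0 CPM in longfin heterozygotes and 12.3 and 10.4 CPM in wildtype fish, a log2 fold change of -0.39 ± 0.16 (SE) (edgeR adjusted p = 0.516). HAS2, the synthase best known from heart valve formation, stood at 20.3 and 28 CPM in longfin heterozygotes and 21 and 23.8 CPM in wildtype tips, and the genotypes overlapped. HAS3 was nearly absent, with 6 and 0 reads in the longfin heterozygous libraries and 2 and 2 in the wildtype libraries, and was not tested.

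Versicans and link proteins had values on both sides of 0. *vcanb*, a versican gene, had 181 and 138 CPM in longfin heterozygotes and 137 and 108 CPM in wildtype fish, so that replicate 2 of the longfin heterozygotes was only just above replicate 1 of the wildtype fish. Its log2 fold change was 0.38 ± 0.17 (SE) (edgeR adjusted p = 0.579), and that of *vcana* was -0.12. The link protein gene *hapln1a* was at 84.8 and 133 CPM in longfin heterozygotes and 87.3 and 128 CPM in wildtype tips, with replicate 2 higher in both genotypes and a log2 fold change of 0.01 ± 0.29 (SE). Of the other HAPLN1 genes, ENSDARG00000102395 was low and had the highest log2 fold change of the 60 genes. It had 4.82 and 4.27 CPM in longfin heterozygotes and 2.59 and 1.79 CPM in wildtype fish, a log2 fold change of 1.07 ± 0.27 (SE) (edgeR adjusted p = 0.234). ENSDARG00000068516 had a log2 fold change of 0.09 and HAPLN3 one of 0.07.

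**Figure D3:**
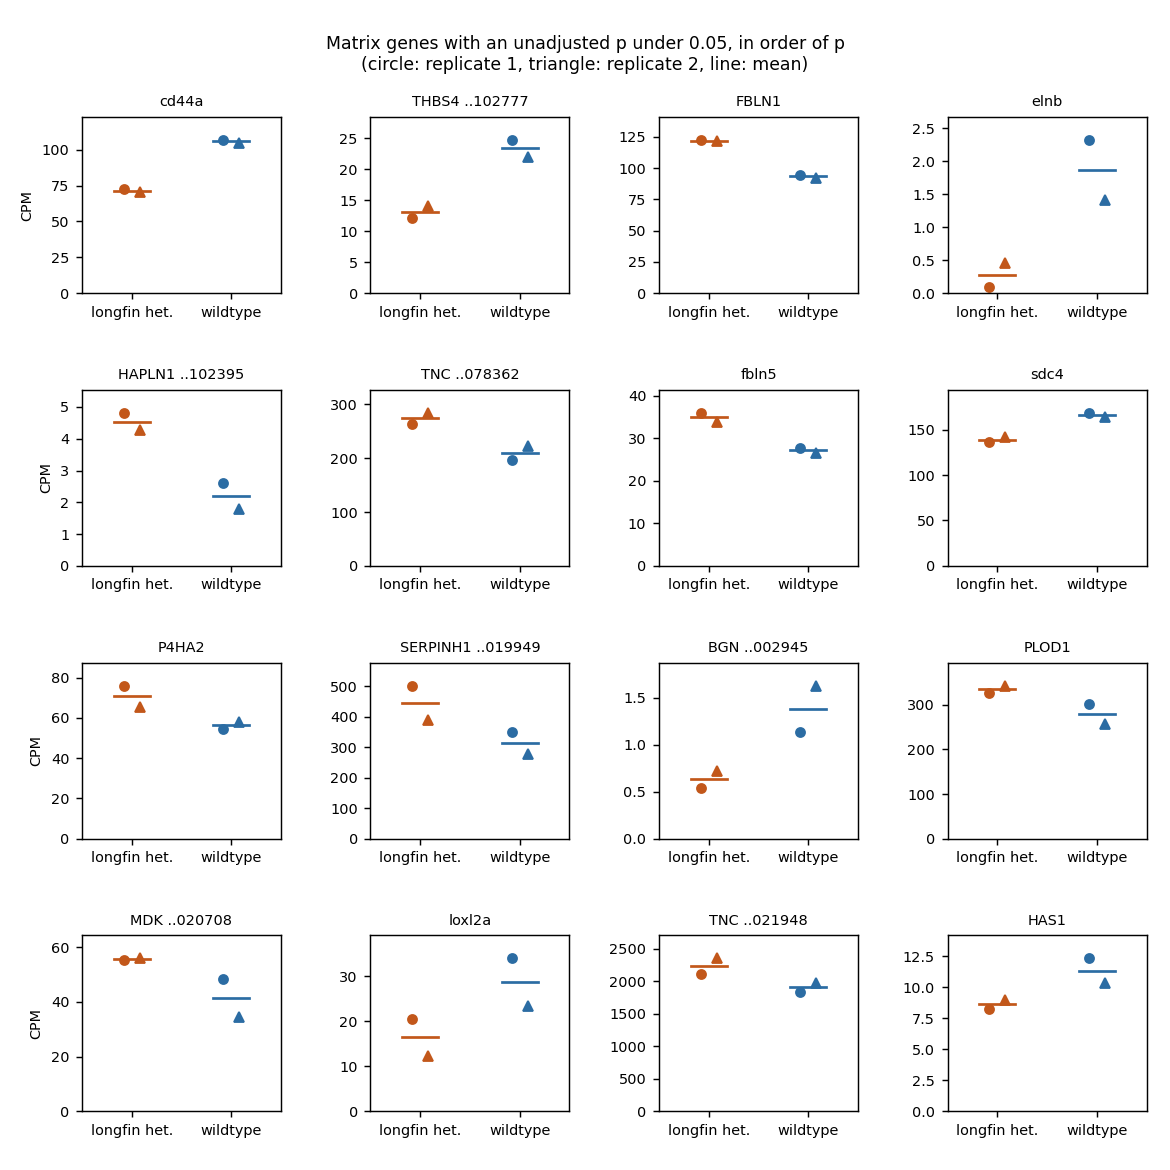
CPM in each library for the 16 matrix genes with an unadjusted p under 0.05, in order of that p, with longfin heterozygous libraries left of wildtype libraries, a line at each mean and each axis starting at 0. In *cd44a* and FBLN1 the 2 libraries of a genotype nearly coincide, while in *loxl2a* and *elnb* the libraries of each genotype stand apart, and in the MDK copy only the wildtype libraries do.

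Heparan sulfate proteoglycans hold growth factors such as Fgfs at the cell surface and in basement membranes. None of their 7 tested genes passed. *sdc4*, a transmembrane syndecan of cell adhesions, had 136 and 142 CPM in longfin heterozygotes and 169 and 164 CPM in wildtype fish. Both longfin heterozygous libraries were lower, by a log2 fold change of -0.26 ± 0.08 (SE) that did not pass (edgeR adjusted p = 0.367). HSPG2, the gene of the basement membrane proteoglycan perlecan, stood at 403 and 422 CPM in longfin heterozygotes and 399 and 358 CPM in wildtype tips (log2 fold change 0.12 ± 0.09 (SE)). AGRN, which encodes agrin, had 204 and 202 CPM in longfin heterozygotes and 205 and 161 CPM in wildtype fish, the lowest value being wildtype replicate 2. The syndecan gene *sdc2* and the glypican genes GPC4 and GPC1, whose products are tethered to the membrane by a lipid anchor, had log2 fold changes of 0.07, 0.10 and -0.26. GPC6 (ENSDARG00000103156) was low, with 33 and 25 reads in longfin heterozygotes and 18 and 18 in wildtype fish and a log2 fold change of 0.71 ± 0.37 (SE). The other GPC6 gene (ENSDARG00000104219) had 0 and 2 reads in longfin heterozygotes and 0 and 3 in wildtype fish and was not tested.

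Elastic fibres are built from elastin on a scaffold of fibrillin microfibrils, with fibulins and emilins as linkers. Both FBLN1 and *fbln5*, fibulin genes, had higher values in longfin heterozygotes. FBLN1 had 123 and 121 CPM in longfin heterozygotes and 94.8 and 92.4 CPM in wildtype fish, and *fbln5* had 36 and 33.9 CPM in longfin heterozygotes and 27.7 and 26.5 CPM in wildtype fish. Neither gene's genotypes overlapped, and libraries of a genotype differed by far less than the genotypes did. With log2 fold changes of 0.38 ± 0.08 (SE) and 0.37 ± 0.10 (SE), their adjusted p-values in edgeR were 0.167 and 0.31.

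The elastin gene *elnb* had the largest fold change of all 60 genes and few reads. It had 2 and 9 reads in the longfin heterozygous libraries and 43 and 34 in the wildtype libraries. Summed per genotype and scaled, longfin heterozygous reads were 0.146 of wildtype reads (95% exact interval 0.0698 to 0.275, which covers counting error only). In edgeR the log2 fold change was -2.76 ± 0.62 (SE) with an adjusted p of 0.196, and without a library it lay between -4.26 (without longfin heterozygous replicate 2) and -1.97 (without longfin heterozygous replicate 1). Fibulin and microfibril genes with more reads had smaller fold changes. EFEMP2 (ENSDARG00000094324), a gene of fibulin 4, which elastic fibre assembly in mice requires, was at 155 and 185 CPM in longfin heterozygotes and 139 and 164 CPM in wildtype tips, with overlap. The second EFEMP2 (ENSDARG00000020811), the fibrillin gene FBN2, FBLN2 and *emilin1a* had log2 fold changes of 0.09, -0.06, -0.12 and -0.43. *emilin3a* had 5 and 7 reads in longfin heterozygotes and 6 and 5 in wildtype fish and was not tested.

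Small leucine-rich proteoglycans bind collagen fibrils and set their spacing and diameter. DCN, the decorin gene, had 1109.8 and 946 CPM in longfin heterozygotes and 1117 and 955 CPM in wildtype fish, a log2 fold change of -0.01 ± 0.12 (SE), with replicate 1 the higher in both genotypes. OGN (ENSDARG00000044132), an osteoglycin gene, was at 1034 and 855 CPM in longfin heterozygotes and 935 and 824 CPM in wildtype tips and also overlapped. The lumican gene LUM stood at 240.2 and 233 CPM in longfin heterozygotes and 268 and 252 CPM in wildtype tips (log2 fold change -0.14 ± 0.08 (SE)). A biglycan copy, BGN (ENSDARG00000002945), had 12 and 14 reads in longfin heterozygotes and 21 and 39 in wildtype fish. This made 0.54 and 0.72 CPM in longfin heterozygotes and 1.14 and 1.63 CPM in wildtype fish, both longfin heterozygous libraries being lower, with a log2 fold change of -1.16 ± 0.42 (SE) (edgeR adjusted p = 0.451). The other BGN gene (ENSDARG00000017884) had a log2 fold change of -0.38, and wildtype replicate 2, at 35.0 CPM, stood above the 21.2 to 22.4 CPM of the remaining libraries. The FMOD genes of fibromodulin, ENSDARG00000010294 and ENSDARG00000044895, were at 0.19 and -0.00, and the second OGN gene (ENSDARG00000031489), with 11 and 3 reads in longfin heterozygotes and 3 and 7 in wildtype fish, was not tested.

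Lysyl oxidases oxidise lysines of collagen and elastin to start their crosslinks. Of 6 genes, 5 had a log2 fold change below 0, as did 9238 of all 18366 tested genes, with none past the threshold. Their median was -0.27, against -0.00 over all genes. The family members LOXL4, *loxl5a* and *loxl5b* were not in this class but among the further genes of collagen processing. *loxl2a* had 20.5 and 12.3 CPM in longfin heterozygotes and 33.9 and 23.5 CPM in wildtype fish. Replicate 1 was the higher library in each genotype, so longfin heterozygous replicate 1 and wildtype replicate 2 lay near each other. The log2 fold change was -0.79 ± 0.30 (SE) (edgeR adjusted p = 0.497). LOXL1, an enzyme gene tied to elastic fibres in mice, was at 12.9 and 21.1 CPM in longfin heterozygotes and 19.7 and 30.4 CPM in wildtype tips, here with replicate 2 the higher in each, a log2 fold change of -0.57 ± 0.31 (SE). LOXL2 (ENSDARG00000044074), the most read gene of the class, had 344 and 376 CPM in longfin heterozygotes and 343 and 385 CPM in wildtype fish and did not separate them. LOX stood at 98.3 and 98.7 CPM in longfin heterozygotes and 108 and 112 CPM in wildtype tips (log2 fold change -0.16 ± 0.08 (SE)). The LOXL3 genes ENSDARG00000039563 and ENSDARG00000076306 had log2 fold changes of 0.11 and -0.37.

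New collagen chains are hydroxylated on prolines and lysines in the endoplasmic reticulum and folded with the chaperone Hsp47, which SERPINH1 encodes. SERPINH1 (ENSDARG00000019949) had 502 and 388 CPM in longfin heterozygotes and 351 and 277 CPM in wildtype fish, so the genotypes did not overlap although replicate 1 was well above replicate 2 in both. Its log2 fold change was 0.51 ± 0.16 (SE) (edgeR adjusted p = 0.426). The second SERPINH1 gene (ENSDARG00000075954) had 366 and 264 CPM in longfin heterozygotes and 386 and 335 CPM in wildtype fish, a log2 fold change of -0.19 ± 0.17 (SE) in the other direction, and overlapped. PLOD1, a lysyl hydroxylase gene, had 327 and 343 CPM in longfin heterozygotes and 302 and 257 CPM in wildtype fish, and P4HA2, a catalytic subunit gene of prolyl 4-hydroxylase, had 76 and 65.4 CPM in longfin heterozygotes and 54.4 and 58.1 CPM in wildtype fish. In both, every longfin heterozygous library was above every wildtype library. Their log2 fold changes were 0.26 ± 0.10 (SE) and 0.33 ± 0.11 (SE), with adjusted p-values of 0.47 and 0.39 in edgeR. PLOD2, PLOD3, *p4ha1a*, P4HA1 and CRTAP, a gene of the prolyl 3-hydroxylase complex, had log2 fold changes of -0.37, 0.11, -0.14, 0.08 and 0.01.

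Midkine and pleiotrophin are secreted heparin-binding growth factors. Of the MDK genes, ENSDARG00000036036 was the more read, with 644 and 644 CPM in longfin heterozygotes and 618 and 669.9 CPM in wildtype fish, a log2 fold change of 0.00 ± 0.08 (SE). ENSDARG00000020708 had 55.3 and 55.9 CPM in longfin heterozygotes and 48.5 and 34.5 CPM in wildtype fish. The longfin heterozygous libraries nearly coincided and the wildtype libraries stood apart, and the log2 fold change of 0.43 ± 0.16 (SE) did not pass (edgeR adjusted p = 0.471). The pleiotrophin gene PTN was low, at 0.99 and 1.03 CPM in longfin heterozygotes and 1.46 and 0.877 CPM in wildtype tips.

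Some of these genes also differed between libraries of 1 genotype. In longfin heterozygotes, 5 of the 60 genes differed more than 1.5-fold between libraries (8.33%, against 13.1% of all tested genes), and in wildtype fish 9 did (15%, against 13.3%). The direction of that difference was often shared. In 44 of 60 genes (73.3%) the library with the higher CPM carried the same replicate number in both genotypes, as it did in 60.5% of all tested genes. Replicate 1 was the higher in both for 24 of them, among them POSTN (ENSDARG00000104267), SPARC, DCN, OGN (ENSDARG00000044132), *loxl2a* and both SERPINH1 genes. Replicate 2 was the higher in both for 20, among them both FN1 genes, both TNC genes, *hapln1a* and LOXL1. No label says that libraries with the same number share a day, clutch or preparation.

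**Figure D4:**
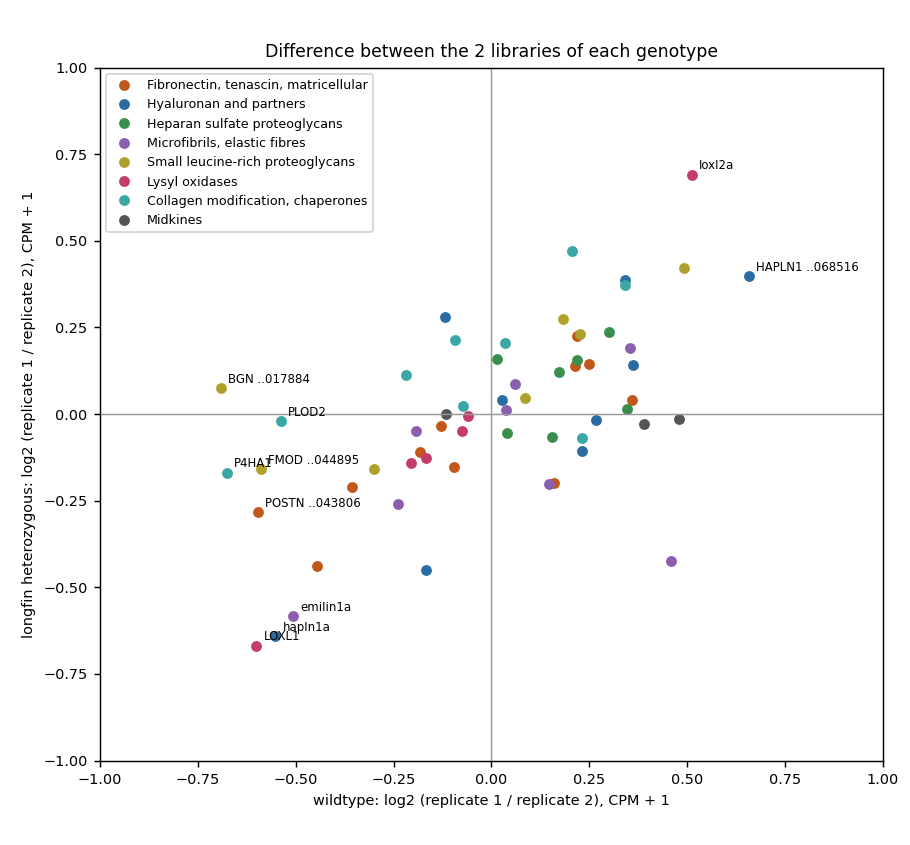
For each tested gene, the log2 ratio of replicate 1 to replicate 2 (CPM + 1) in longfin heterozygotes (vertical) and in wildtype fish (horizontal), coloured by class, with genes beyond 0.5 named where their labels fit. 44 of the 60 points lie at the lower left or upper right, where the same replicate number was higher in both genotypes.

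Other genes of matrix assembly, read as 5 lists, also had 0 of 137 tested genes past edgeR's threshold in either direction, and 0 in DESeq2. At an unadjusted p under 0.05 there were 6 higher and 5 lower, 8.03% of them against 9.47% of all tested genes. Of 25 further genes of collagen processing, 3 were higher and 0 lower at that level, and PPIB, a prolyl isomerase gene with the most reads among them, had a log2 fold change of -0.02. Of 40 further matrix glycoproteins, 0 were higher and 3 lower. The most read of these, *emilin1b*, stood at -0.13. *ccn2b*, a matricellular gene, was one of the 3, with 4.46 and 3.39 CPM in longfin heterozygotes and 12.4 and 6.3 CPM in wildtype fish. Its log2 fold change was -1.22 ± 0.37 (SE) (edgeR adjusted p = 0.378). It is mentioned, a choice made with its values known, because of the fit without wildtype replicate 2. That fit rests on wildtype replicate 1 alone for its genotype, the library where *ccn2b* was highest. Of 17 further proteoglycans, 1 was higher and 1 lower, with the asporin gene ASPN at -0.15. Of 12 genes of hyaluronan turnover, 0 reached that level, and the hyaluronidase gene HYAL2 (ENSDARG00000062997) stood at -0.12. Of 43 genes of glycosaminoglycan synthesis, 2 were higher and 1 lower, and SULF2 (ENSDARG00000013838), which encodes a sulfatase that trims heparan sulfate, stood at -0.08.

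**Figure D5:**
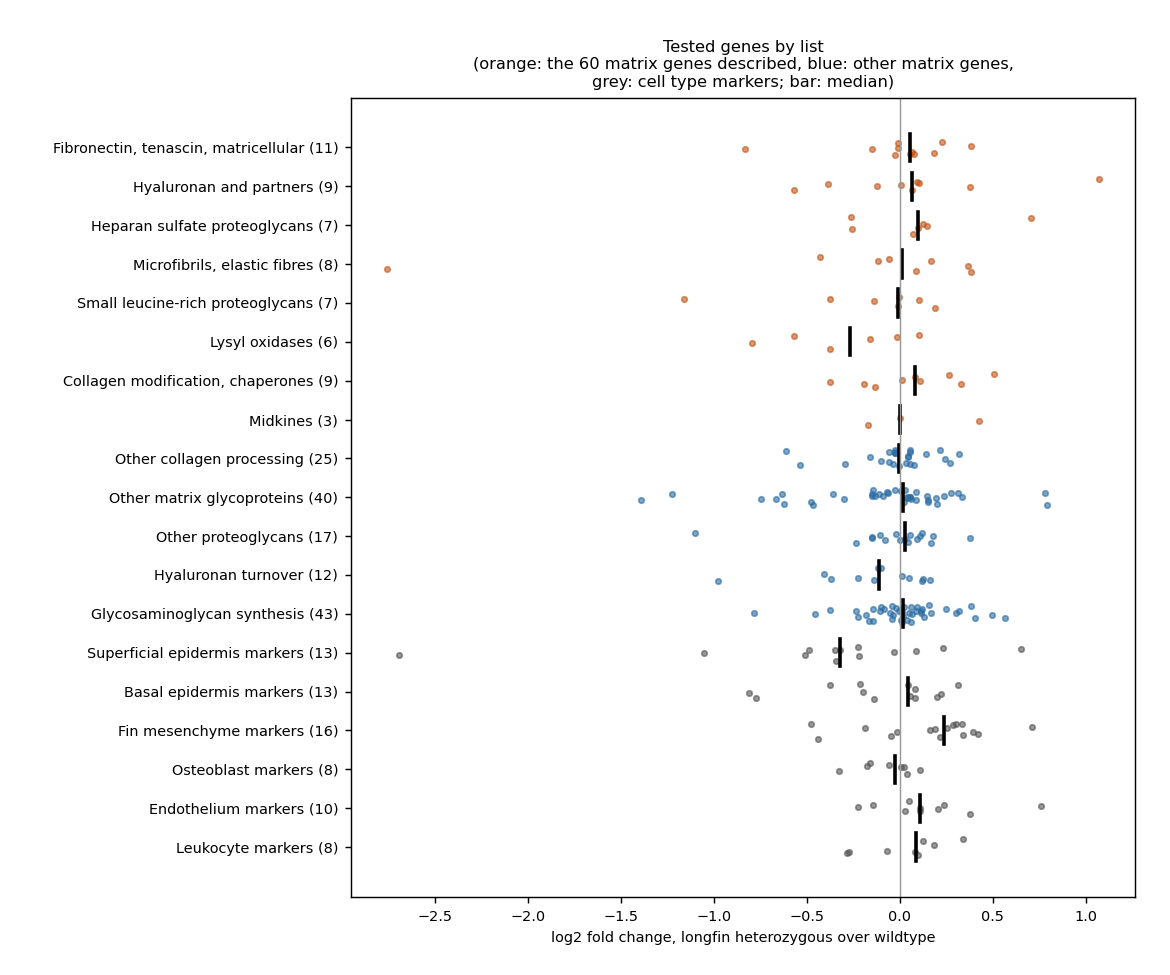
Log2 fold changes, longfin heterozygous over wildtype, of the tested genes of each list, 1 point a gene with a black bar at the median and the number of genes in brackets; vertical scatter within a row has no meaning. Medians of the matrix classes lie between -0.27 for lysyl oxidases and 0.10 for heparan sulfate proteoglycans, against -0.32 for superficial epidermis markers and 0.24 for fin mesenchyme markers.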

How the data were processed

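RNA was isolated with TRIzol and a stranded mRNA kit from Kapa was used, per the labels' protocols. TopHat2, HTSeq and the GRCz11 (danRer11) build are named in the submitters' processing notes. The sources used here give no versions, annotation release, strand setting or overlap mode, which leaves overlapping and antisense genes uncertain. The authors deposited whole-number counts of reads for each Ensembl gene, without normalization. An unnamed row, equal to the sum of the genes, and the HTSeq classes stayed out of library sizes and tests. Alignments that were not unique made up 28.7 to 41.9% of what HTSeq recorded per library, and 7.78 to 9.31% fell in no gene. Libraries of a genotype were not duplicates: chi-square over its degrees of freedom was 20.3 in longfin heterozygotes and 29.8 in wildtype fish.

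The table of gene names gives symbols for 29178 of the 31901 IDs. Names were matched in any case, then without the paralogue letter, then through RefSeq synonyms. Of 178 further matrix genes 158 were matched, as 166 IDs, and of 75 markers 71, as 72 IDs. IDs already among the 64 were left out of the further matrix genes. Names such as *thbs4a* and *loxl3a*, whose symbols THBS4 and LOXL3 were already taken, therefore count as not matched.

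Counts were analysed in R 4.3.3 with edgeR 4.0.16 over all 4 libraries: filterByExpr by genotype (minimum count 10, total 15), TMM, the quasi-likelihood fit with robust estimation, and a two-sided test of genotype without a replicate term. Benjamini-Hochberg adjustment ran over all 18366 tested genes (threshold 0.05). SE is the size of the log2 fold change over the root of F. The fit was also run on simulated counts, with the same spread for every gene and no deviations shared by same-numbered libraries. It recovered 91% of 100 genes changed 2-fold and 100% of 100 changed 4-fold. Of the 18144 genes in that fit, 11 unchanged ones were falsely called. Genes were changed only above a set mean CPM. *elnb*, BGN (ENSDARG00000002945) and HAPLN1 (ENSDARG00000102395), at means of 1.07, 1.01 and 3.37 CPM, lay under it, so the recovery does not cover genes read as little as these. Smaller changes were not simulated. Alternatives were other scalings, no filter, a minimum mean count of 50, DESeq2 1.42.0, limma voom 3.58.1, a replicate block and leaving out each library. No sequences are printed.

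The genes and lists were chosen with earlier results of these data known. Named with values were genes at an unadjusted p under 0.05 and, in each class, the 2 with most reads and the 1 of largest fold change; the remainder are given by their fold changes or counts, and further values were added where they show a second copy.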

Additional observations from a re-analysis of the deposited data

How the results depend on the processing

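The count over all genes was 74 in edgeR and became 219 with library size only, 130 without the low count filter and 291 with DESeq2, and 1 to 163 when 1 library was left out: 1 and 3 without longfin heterozygous replicates 2 and 1, 56 and 163 without wildtype replicates 1 and 2. Of the matrix genes, 0 passed; 3 passed with library size only (*cd44a*, THBS4 ENSDARG00000102777 and *elnb*), and *cd44a* and that THBS4 gene were the 2 without the filter and the 2 with DESeq2. Leaving out a library kept that count at 0 (range 0 to 0), and gave 0 to 1 of the other matrix genes. At an unadjusted p under 0.05 the 16 matrix genes became 9 to 19 without a library (15 to 31.1%), where 6.65 to 9.22% of all genes in those fits reached it. The medians of all genes moved by less than 0.1 on the log2 scale under every scaling.

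With the replicate number as a block, 794 genes passed over all (4.32%), with 12 of the 60 matrix genes and 7 of the other matrix genes. The 12 were *cd44a*, THBS4 (ENSDARG00000102777), *elnb*, LOXL1 and *loxl2a* as lower, and both TNC genes, FBLN1, *fbln5*, *vcanb*, HAPLN1 (ENSDARG00000102395) and SERPINH1 (ENSDARG00000019949) as higher. Same-numbered libraries deviated together, with r = 0.31 over 18366 genes and 0.39 over the 14550 with a mean count of at least 50. Over the 60 matrix genes r was 0.62, as it was over the 137 other matrix genes tested. With 2 pairs and no label that says what a number shares, the pairing is only a hint from the data.

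The 12 matrix genes that passed in any of the 13 settings kept their direction in every setting that tested them. Because they were picked by passing and every setting refits the same libraries, this is no independent check of direction. *elnb* was not tested at a mean count of at least 50. Sign changes fell on genes that no setting called. They were followed in the 30 genes picked by the naming rule above and not in others, such as SPARC. With upper quartile scaling and library size only, POSTN (ENSDARG00000104267) went to 0.016 and 0.0238, DCN to 0.0168 and 0.0252 and LOXL2 to 0.00999 and 0.00978. *hapln1a* was at -0.00864 with limma voom. MDK (ENSDARG00000036036) was at -6.02e-05 with DESeq2's size factors, -8.75e-05 with DESeq2 and -0.00401 with a mean count of at least 50. Without a library, sign changes occurred in the ranges -0.26 to 0.217 for FN1 (ENSDARG00000006526), -0.114 to 0.0996 for POSTN (ENSDARG00000104267), -0.347 to 0.318 for *hapln1a*, -0.0147 to 0.333 for AGRN, -0.13 to 0.107 for DCN, -0.0409 to 0.235 for OGN (ENSDARG00000044132), -0.0962 to 0.0708 for LOXL2, -0.45 to 0.0235 for SERPINH1 (ENSDARG00000075954) and -0.0558 to 0.0614 for MDK (ENSDARG00000036036). The cause was not tested.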

Other observations

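Zebrafish keep many matrix genes as pairs, and 13 symbols of the list stood for 2 gene IDs each. In 11 of these pairs both copies were tested. Copies with separate symbols, such as *vcana* and *vcanb*, *p4ha1a* and P4HA1, or *loxl2a* and LOXL2, are outside these counts. The fold changes of the 2 copies had the same sign in 6 pairs and opposite signs in 5, among them SERPINH1 and THBS4, and no difference between copies was tested. Some of these signs belong to values far smaller than their SE. Examples are FN1 (ENSDARG00000006526) at -0.03 ± 0.20 (SE) and FMOD (ENSDARG00000044895) at -0.00 ± 0.25 (SE). The copy with fewer reads had the larger fold change in size in 8 of the 11 pairs, such as MDK (0.43 against 0.00). It had the smaller in 3, EFEMP2 (0.09 against 0.17), FMOD (0.19 in the more read copy and -0.00 in the other) and SERPINH1 (-0.19 against 0.51). The less read copy often had the larger SE too, as in BGN (0.42 against 0.23), LOXL3 (0.31 against 0.09) and MDK (0.16 against 0.08). In FN1 its SE was the smaller (0.14 against 0.20). What this error contributes to the count of 8 was not tested.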
